A study of Mus musculus with 27 samples.

Results

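The effect of losing Ythdf1 was examined in mouse embryonic stem cells by setting the 2 Ythdf1-/- poly(A) RNA libraries against the 2 wild-type libraries, 4 of the 27 samples of the series. The rule took every library labelled with those genotypes, replicates A and B of each, and no measured value entered the choice. All 12 stem cell libraries came from KH2 cells, a line of C57BL/6 x 129/Sv background kept in serum and the self-renewal cytokine LIF. The other 8 were 2 each of Ythdf2-/-, Ythdf3-/-, the triple Ythdf1, Ythdf2 and Ythdf3 knockout and Mettl3-/-. They entered the estimate of spread, and the Ythdf2 and Ythdf3 knockouts also served as comparators. The labels give neither the deleted part of Ythdf1 nor how many clones a genotype stands for, so a change of the genotype and a feature of 1 clone cannot be told apart. They also do not say whether replicates A and B were separate cultures, so p-values measure the spread between these libraries only, which may be technical.

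Ythdf1 encodes a cytoplasmic protein whose YTH domain binds N6-methyladenosine (m6A), a mark that Mettl3 and its partners place on mRNA, and it has been linked both to translation and to decay of marked mRNAs. Ythdf2 and Ythdf3 are close relatives that bind the same mark. Cultured mouse stem cells hold a rare, passing state that expresses genes otherwise seen when the 2-cell embryo first transcribes its own genome, such as the Zscan4, Tcstv and Usp17l families. Serum and LIF cultures also hold cells that lean towards trophoblast, mesoderm or neural fates, marked by genes such as Cdx2, Bmp4 and Foxd1. In bulk RNA, more cells in such a state and more RNA per cell cannot be told apart.

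Assigned counts were 905184 and 923145 in Ythdf1 knockout libraries, against 1099347 and 1111764 in wild type. After scaling, a single count was worth 1.11 and 1.09 CPM (counts per 1e6 scaled counts of tested genes) in the knockout and 0.901 and 0.892 CPM in wild type, so genes below about 10 CPM rest on few reads. Replicates lay closer together than counting error. Their chi-square per gene was 0.689 to 0.835 in the 6 groups, below 1 in all of them, so no pair served to judge another. It was 1.39 to 1.57 in the 4 pairings of a Ythdf1 knockout with a wild-type library. In the 4 pairings of a Ythdf1 with a Ythdf3 knockout library it was 0.856 to 0.978, below 1 but above the replicates. Both wild-type libraries also stood apart on 2 chromosome ends, as set out after the gene groups.

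The Ythdf1 transcript was not called. Its counts stood at 174 and 177 CPM in knockout libraries, against 179 and 173 CPM in wild type, a log2 change of -0.00 ± 0.09 (edgeR quasi-likelihood test, Benjamini-Hochberg adjusted p = 0.995; standard error, 2 libraries a side, as throughout, where values in parentheses are log2 changes with their standard error). A count over the whole gene does not check a deletion of unstated extent. The gene lies on chromosome 2, and of the 18 tested genes that start within 500 kb of it, Ythdf1 included, only Dido1 was called: 153 and 106 CPM in the knockout, against 169 and 171 CPM in wild type (-0.39 ± 0.10, adjusted p = 0.0306). The call for Dido1 ended without knockout library B, without wild-type library A and without wild-type library B. Ythdf2 was at 28.9 and 35.0 CPM in the knockout, against 26.1 and 25.0 CPM in wild type, and Ythdf3 at 78.9 and 60.1 CPM in the knockout, against 73.0 and 66.0 CPM in wild type, neither of them called.

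Of 11951 genes tested, 412 (3.45%) passed an adjusted p of 0.05. They comprised 233 higher (1.95%) and 179 lower (1.50%) in the knockout, of which 109 (0.912%) and 81 (0.678%) changed more than 2-fold. The median log2 change over all tested genes was -0.0013. The test estimated a spread below counting error for 11759 genes. With that spread held at counting error or above, an alternative added after the replicates were seen, 337 genes were called, 199 higher and 138 lower. DESeq2 called 56, 52 of them higher (92.9%) and 4 lower. Leaving out 1 library lowered the count to 222 without knockout A, 193 without knockout B, 221 without wild-type A and 237 without wild-type B. Where a named call against wild type ended without a library, that library is given with it.

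The largest rises were in genes of the 2-cell embryo. The 3 lists of such genes hold 47 members, of which 11 are not in the count table, 4 were below the filter on low counts (34 counts in the 2 knockout libraries, against 13 in the 2 wild-type libraries) and 32 were tested. Of these, 26 were called higher and 0 lower, beside 1.95% and 1.50% of all genes tested. Their median log2 change was 2.89, or 2.86 with 2 genes unseen in wild type put at a floor of 3 wild-type counts. The filter bears on that count, since 27 of the 32 did not reach its 12.2 CPM in both wild-type libraries and passed through groups in which they are higher. Of the 5 that did reach it, 2 were called higher, and the counts are a description of the members that passed. The lists were also chosen with earlier results of these data known, so their shares beside those of all genes do not test the set. All 26 held with the spread at counting error or above, and DESeq2 kept 20. Upstream sequence was in the RefSeq promoter table (GRCm38.p6) for 18 of the 32. Stretches of 100 bases from before the start site are shown for several, because they show how alike the risen family members are. The Zscan4 stretches lie at chr7:11005515-11005614 (Zscan4c, plus strand) and chr7:11166290-11166389 (Zscan4d, minus strand). The AF067061 stretch lies at chr13:120262870-120262969 (plus strand). Capitals mark the run TGATTCAA, searched on both strands over the 250 bases upstream and chosen after the sequences were read.
Zscan4c: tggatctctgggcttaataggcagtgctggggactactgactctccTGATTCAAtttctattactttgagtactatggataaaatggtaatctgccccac
Zscan4d: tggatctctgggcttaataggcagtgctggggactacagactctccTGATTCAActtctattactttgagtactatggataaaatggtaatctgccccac
AF067061: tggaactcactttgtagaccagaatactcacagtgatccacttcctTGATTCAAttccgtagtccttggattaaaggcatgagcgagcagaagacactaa
The Zscan4c stretch was the same as that of Zscan4f at all 100 positions and as that of Zscan4d at 98. The AF067061 stretch matched Zscan4c at 44 of 100, the shared run included. The run stood in 4 of the 18 (22.2%: Zscan4c, Zscan4d, Zscan4f and AF067061), in 0.343% of the 9050 tested genes with a promoter and in 0.577% of all 27025 promoters. Because the run was read from these stretches and those of Zscan4 are near copies, the shares do not test it. The run is a description of letters and not a mapped binding site.

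The Usp17l genes, which encode deubiquitinases, lie as near copies on chromosome 7. The stretches below come from chr7:104856840-104856939 (Usp17la, plus strand), chr7:104842645-104842744 (Usp17lb, minus strand) and chr7:103416478-103416577 (Usp17lc, plus strand). Start sites are those of RefSeq, and GENCODE M21 starts Usp17lc farther upstream, so its stretch lies inside the gene there. Capitals mark the longest run shared by these and Usp17ld, 29 bases.
Usp17la: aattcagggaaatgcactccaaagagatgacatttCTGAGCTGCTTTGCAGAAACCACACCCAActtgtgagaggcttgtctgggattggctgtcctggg
Usp17lb: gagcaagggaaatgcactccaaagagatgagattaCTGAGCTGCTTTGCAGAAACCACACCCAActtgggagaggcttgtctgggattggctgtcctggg
Usp17lc: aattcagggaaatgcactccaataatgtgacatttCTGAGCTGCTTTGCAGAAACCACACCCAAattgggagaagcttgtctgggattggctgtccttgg
Aligned on that run, Usp17la matched Usp17lb at 93 of 100 positions and Usp17lc at 92. The transcripts are also alike. Of all 50-base stretches, 19.3% of those in Usp17la, 51.1% in Usp17ld, 49.6% in Zscan4d and 90.1% in Zscan4b occur in another gene, so reads may be split between copies and the values of single members are uncertain. Spz1, Chit1 and Arg2 share none, and Tmem92 shares 1.93%.

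All 7 tested Zscan4 and Tcstv genes rose, with a median log2 change of 3.41. Tcstv1, of a family of small 2-cell proteins, was at 61.1 and 78.7 CPM in the knockout, against 4.50 and 3.57 CPM in wild type (4.07 ± 0.29, adjusted p = 9.71e-19). Tcstv3 had 64 counts in the 2 knockout libraries, against 3 in the 2 wild-type libraries, 26.2-fold for depth (95% counting interval 8.58 to 131). Zscan4c, a zinc finger gene of telomere upkeep, was at 53.3 and 64.5 CPM in the knockout, against 9.01 and 9.81 CPM in wild type (2.63 ± 0.24, adjusted p = 1.23e-13). Of these 7, 0 reached the filter's 12.2 CPM in both wild-type libraries, so they passed it through groups in which they are higher. Zscan4d (2.84 ± 0.27), Zscan4a (2.89 ± 0.29), Zscan4f and Zscan4b rose likewise, the last losing its call without wild-type library B.

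All 5 Usp17l genes rose within a narrow range, 3.28 to 3.72 on the log2 scale, and DESeq2 called all 5. Usp17le, the most abundant, was at 152 and 166 CPM in the knockout, against 18.02 and 12.48 CPM in wild type (3.37 ± 0.16, adjusted p = 1.15e-27). Usp17lb was at 122 and 117 CPM in the knockout, against 9.91 and 8.02 CPM in wild type (3.72 ± 0.20, adjusted p = 4.39e-25). Summed over the family, knockout libraries held 505 and 509 CPM and wild-type libraries 51.3 and 42.8 CPM. Usp17la stood at 42.2 and 59.0 CPM in the knockout, against 5.41 and 4.46 CPM in wild type (3.32 ± 0.30).

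The list of other genes of the 2-cell embryo had 14 rises among the 20 tested. Spz1, a bHLH gene of germ cells on chromosome 13, had 26.7 and 24.0 CPM in the knockout and 0 in both wild-type libraries. It was 18.9-fold higher with 3 counts taken as the floor over the wild-type group and the knockout counts taken as exact. Chit1, a chitinase, was at 52.2 and 56.8 CPM in the knockout, against 8.11 and 9.81 CPM in wild type (2.59 ± 0.25, adjusted p = 4.93e-13). Arg2, mitochondrial arginase, was at 44.4 and 51.4 CPM in the knockout, against 9.91 and 7.13 CPM in wild type (2.47 ± 0.26, adjusted p = 1.41e-11). These 3 genes share no 50-base stretch with another gene, and they rose as the repeated families did. Tmem92 (2.82 ± 0.27), AF067061 (4.21 ± 0.41), Gm5662 (2.36 ± 0.20) and Gm8300 (2.42 ± 0.21) rose too. Zfp352, a zinc finger gene, had 19 counts in the knockout, against 1 in wild type, 23.4-fold for depth (interval 3.71 to 971). Tdpoz4, with 8 counts in the knockout, against 0 in wild type, was 3.28-fold higher at the same floor, but its call ended without knockout library A or either wild-type library. B020004J07Rik lost its call without knockout B or wild-type A, and Ubtfl1 without knockout A or wild-type B. The 6 not called were Lmx1a (2.57, adjusted p = 0.0762), Cml2 (1.21), Zfp750 (0.81), Ddit4l (0.36), Pramef8 (0.31) and the mesenchymal regulator Snai1 (-0.33). The other 22 calls held with each library left out in turn.

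**Figure D1:**
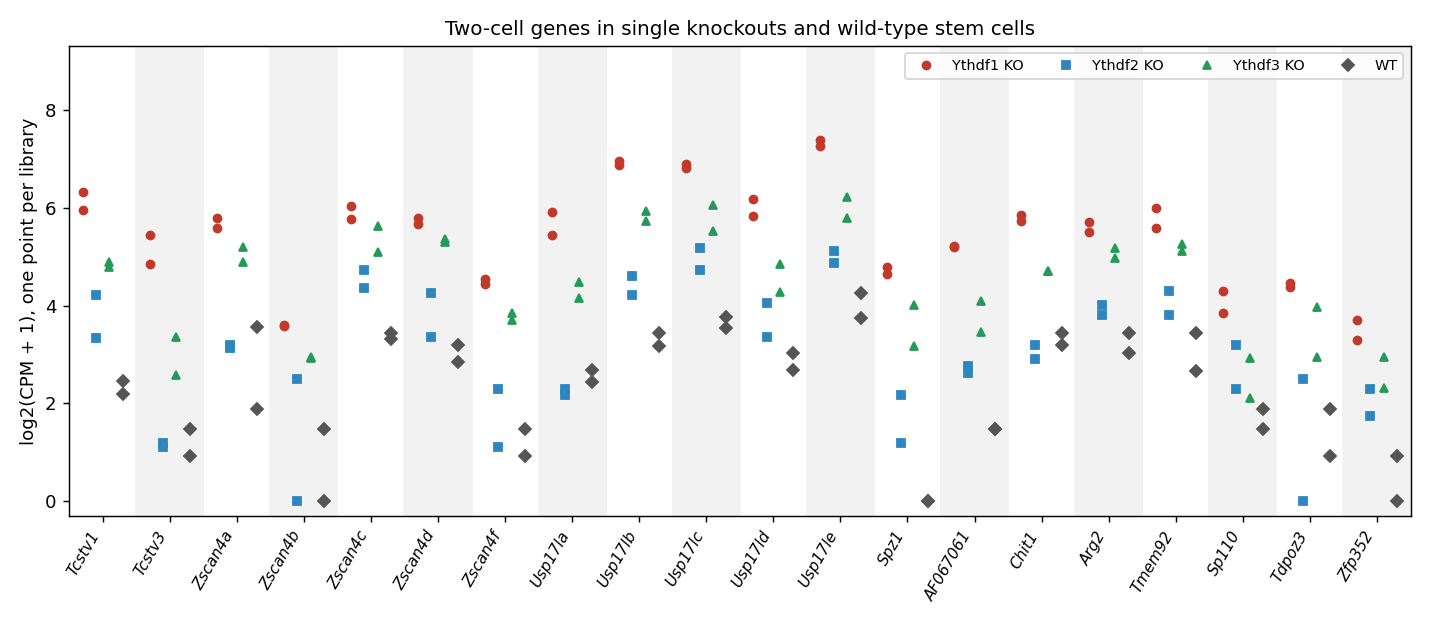
Levels of 20 genes of the 2-cell embryo, as log2(CPM + 1) on the vertical axis, with 1 point per library for Ythdf1, Ythdf2 and Ythdf3 knockouts and wild type (2 libraries each). Both Ythdf1 knockout points lie above the other 6 for all 20 genes, all of which were called higher than wild type. Their distance from wild type thus comes with that choice. Wild-type points are near the bottom (0 for Spz1), and Ythdf3 knockout points lie between Ythdf1 knockout and wild type.

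Outside those lists, H2-M10.4 and Pdlim3 were among the 15 largest rises, and Obox6 and Pramel6 were among the 8 largest positive differences from the Ythdf3 knockout. H2-M10.4, a non-classical class I histocompatibility gene, was at 45.5 and 43.7 CPM in the knockout, against 3.60 and 2.67 CPM in wild type (3.77 ± 0.34, adjusted p = 4.85e-14). Obox6, an oocyte homeobox gene, was at 42.2 and 27.3 CPM in the knockout, against 8.11 and 10.7 CPM in wild type (1.87 ± 0.29, adjusted p = 3.86e-06). Pramel6, of a leucine-rich repeat family of oocytes and early embryos, was at 36.7 and 23.0 CPM in the knockout, against 5.41 and 5.35 CPM in wild type (2.44 ± 0.35). All 3 rises held with each library left out in turn and in DESeq2. Pdlim3, a cytoskeletal adaptor, rose by 2.77 ± 0.37 on the log2 scale.

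The list of regulators of the 2-cell state gave 3 rises and 2 falls of 28 tested, with a median of 0.08. Of all genes tested, 1.95% were called higher and 1.50% lower. Nelfa, a subunit of the negative elongation factor, was at 198 and 206 CPM in the knockout, against 129 and 115 CPM in wild type (0.73 ± 0.09, adjusted p = 7.25e-08). Its call held with each library left out in turn, with the spread at counting error or above and in DESeq2. Chaf1b, of the CAF-1 histone chaperone, rose by 0.33 ± 0.08 (ended without knockout B or wild-type A), and the repressor Trim28 by 0.27 ± 0.07 (ended without each library in turn). Usp7 fell by 0.99 on the log2 scale (ended without knockout A or wild-type A), and Myc, which is also on this list, fell as described with the growth genes.

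Among 31 naive pluripotency genes, 6 rose and 1 fell, beside 1.95% and 1.50% of all genes tested, and the list median was 0.04. Dppa3, a maternal protein that protects DNA methylation in the zygote and is also high in 2-cell-like cells, was at 118 and 129 CPM in the knockout, against 36.9 and 31.2 CPM in wild type (1.85 ± 0.15, adjusted p = 1.03e-16). Fbxo15, an F-box gene under Oct4 and Sox2, was at 453 and 462 CPM in the knockout, against 223 and 250 CPM in wild type (0.95 ± 0.07, adjusted p = 2.02e-17). Both held in DESeq2 and with each library left out in turn. Fbxo15 lies on the end of chromosome 18, where wild-type libraries were low as a whole. Nanog, a core pluripotency factor, was at 589 and 623 CPM in the knockout, against 493 and 494 CPM in wild type (0.30 ± 0.07, adjusted p = 0.0019), and its call ended without knockout library B. The other rises called, Dppa5a (0.24), Utf1 (0.46) and Rex2 (1.24), each ended without 3 or all 4 of the libraries in turn. Klf5 fell by 0.22, at 787 and 743 CPM in the knockout, against 875 and 904 CPM in wild type. It lies on the end of chromosome 14, where wild-type libraries were high, and its call ended without knockout B or wild-type B.

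Of 25 germline genes tested, from a list of 28, 6 were called higher and 0 lower, beside 1.95% and 1.50% of all genes tested, and the median was 0.41. Dpep3, a membrane dipeptidase of meiotic germ cells, was at 54.4 and 54.7 CPM in the knockout, against 21.6 and 24.1 CPM in wild type (1.25 ± 0.19, adjusted p = 2.95e-05). Tuba3a, a testis tubulin, was at 128 and 148 CPM in the knockout, against 82.9 and 75.8 CPM in wild type (0.80 ± 0.11, adjusted p = 2.88e-06). These held with each library left out in turn, and DESeq2 kept Tuba3a of the 6. Dazl, a germ cell RNA-binding protein, rose by 0.57 ± 0.11 (136 and 119 CPM in the knockout, against 90.1 and 81.1 CPM in wild type) and Ddx4, the germ granule helicase on chromosome 13, by 1.12 ± 0.23. Both lost their calls without knockout A or wild-type B. Mael (0.78) and Tdrd12 (0.41), of the piRNA pathway, were called with the spread as estimated but not with it held at counting error. Mael also ended without knockout B or either wild-type library, and Tdrd12 without each library in turn. Among germ cell genes outside the list, 4 that fell were chosen after their values were seen. They do not stand for such genes as a whole, since some were called higher, such as Khdc3 (1.95) and Aurkc (0.55). DESeq2 called neither of those rises, and their dependence on single libraries was not examined. Piwil1, a piRNA-binding protein, was at 15.6 and 13.1 CPM in the knockout, against 26.1 and 32.1 CPM in wild type (-1.02 ± 0.29, adjusted p = 0.0439, ended without each library in turn). The others were Hormad2, a protein of meiotic chromosomes (-1.07, ended without knockout A or wild-type B), Dmrtc2 (-2.32, ended without knockout B) and Tex13 (-0.73, ended without knockout A). DESeq2 called none of these 4.

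**Figure D2:**
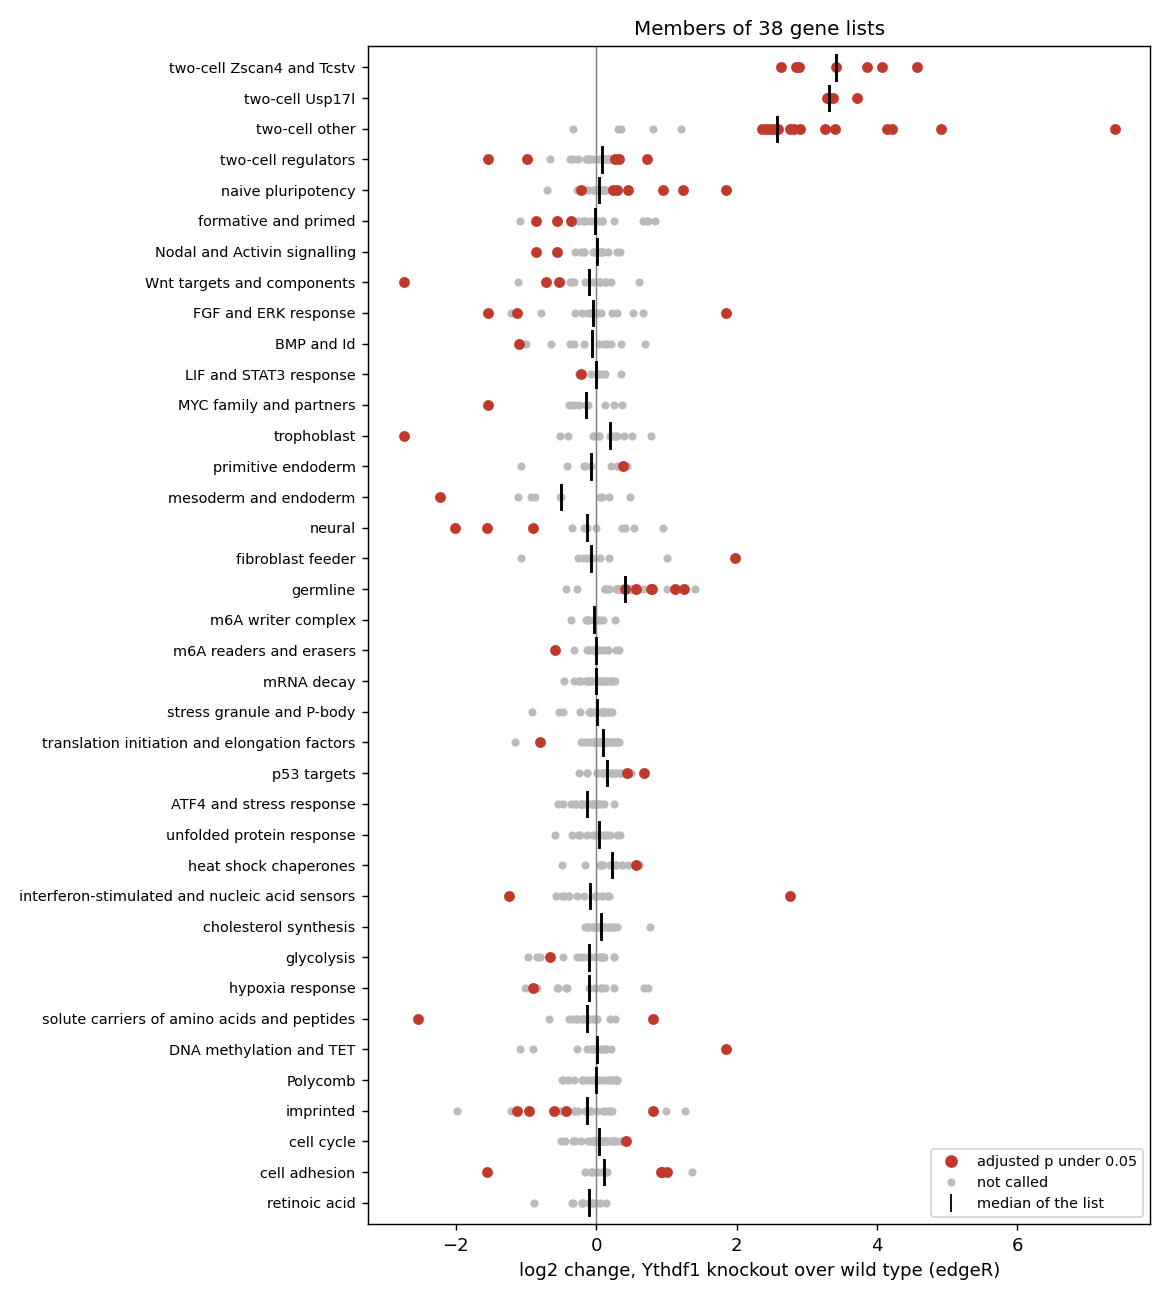
Log2 change in Ythdf1 knockout over wild type (horizontal axis) for every tested member of the 38 gene lists (rows). Red points passed an adjusted p of 0.05, grey points did not, and a black bar marks each list's median. The 3 uppermost lists of 2-cell genes stand to the right, with medians from 2.58 to 3.41, while medians of the other 35 lie between -0.50 and 0.41. The rightmost point, Spz1, is a fitted value for a gene unseen in wild type.

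Among genes of lineages that leave the naive state, single members fell against wild type, where 1.50% of all genes tested were called lower. Against the Ythdf2 and Ythdf3 knockouts, 0 genes of the trophoblast, mesoderm and endoderm, neural, BMP and Myc lists were called lower. The Wnt list had 1 lower against the Ythdf2 knockout, and the Nodal and formative lists had 1 each against the Ythdf3 knockout. Most falls were thus not called as particular to the Ythdf1 knockout, though a missing call does not show equal levels. Cdx2, which specifies trophectoderm, was at 2.22 and 3.28 CPM in the knockout, against 19.8 and 18.7 CPM in wild type (-2.74 ± 0.50, adjusted p = 0.000104). Its relative Cdx1, a posterior homeobox gene and Wnt target, was at 120 and 121 CPM in the knockout, against 188 and 207 CPM in wild type (-0.71 ± 0.10, adjusted p = 2.70e-07). Foxd1, a forkhead gene of mesenchyme, was at 11.1 and 6.56 CPM in the knockout, against 41.4 and 41.9 CPM in wild type (-2.22 ± 0.30, adjusted p = 5.86e-08). These calls held with each library left out in turn, Foxd1 also in DESeq2. Cdx2 was the only fall among 15 trophoblast genes (median 0.19) and Foxd1 among 10 mesoderm and endoderm genes, whose median was -0.50. In that list, T stood at 11.1 and 9.84 CPM in the knockout, against 22.5 and 23.2 CPM in wild type (-1.11, adjusted p = 0.0614) and Eomes at 51.1 and 55.8 CPM in the knockout, against 76.6 and 75.8 CPM in wild type (-0.51, adjusted p = 0.0984), neither called.

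In the Wnt list, 3 of 19 fell, beside 1.50% of all genes tested, and DESeq2 called 0. They were Cdx1 and Cdx2, described above, and Notum, which deacylates Wnt proteins (-0.54 ± 0.12, ended without either knockout library or wild-type B). The Nodal feedback inhibitors Lefty1 and Lefty2 fell by 0.86 and 0.55 on the log2 scale. They were 2 of 18 genes of that pathway, beside the same 1.50%, and DESeq2 called 0. Lefty2 stood at 118 and 107 CPM in the knockout, against 173 and 157 CPM in wild type. Its call ended without knockout B or wild-type A, and that of Lefty1 with each library left out in turn. Bmp4, a signal for mesoderm and germ cells, was at 22.2 and 13.1 CPM in the knockout, against 35.1 and 41.0 CPM in wild type (-1.10 ± 0.26, adjusted p = 0.0056), and its call ended without knockout B or wild-type B. Its targets Id1 (15.6 and 7.65 CPM in the knockout, against 19.8 and 26.7 CPM in wild type, adjusted p = 0.0988), Id2 (0.69, adjusted p = 0.0718) and Id3 (-0.38, adjusted p = 0.423) were not called. The formative list gave 3 falls of 18, beside the same 1.50%, and DESeq2 called 0. They were both Lefty genes, counted above, and Zic2. Zic2 fell by 0.37 on the log2 scale, lies on the chromosome 14 end and kept its call only without knockout A.

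Of 11 neural genes 3 fell, beside 1.50% of all genes tested, and DESeq2 called 0 of the 3. Zmat4, a zinc finger gene, was at 12.2 and 10.9 CPM in the knockout, against 43.2 and 50.8 CPM in wild type (-2.01 ± 0.28, adjusted p = 1.09e-07), and its call held with each library left out in turn. Nkx6-3, a homeobox gene, fell by 0.90 and the adhesion molecule Ncam1 by 1.56. Each kept its call only without wild-type library B. In the adhesion list of 17, the tight junction claudins Cldn6 (0.92) and Cldn7 (1.01) and the melanoma adhesion molecule Mcam (0.94) rose and Ncam1 fell. Of all genes tested, 1.95% were called higher and 1.50% lower, and DESeq2 called 0 of the adhesion list. Cldn7 ended without knockout B or wild-type A, Mcam and Cldn6 without either knockout library or wild-type B.

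Myc, the growth-promoting transcription factor, fell to 11.1 and 14.2 CPM in the knockout, against 39.6 and 34.8 CPM in wild type (-1.54 ± 0.27, adjusted p = 9.34e-05). It was the only one of 11 genes of its family and partners to be called, beside 3.45% of all genes tested. Mycn stood at 132 and 142 CPM in the knockout, against 112 and 119 CPM in wild type and was not called. Among 19 genes of the FGF and ERK response the others called were Dusp4, an ERK phosphatase, which rose by 1.84 ± 0.47 (ended without knockout A or wild-type A), and Ier3, which fell by 1.12 (ended without each library in turn).

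The falls of largest size among genes averaging 4 or more on the log2 CPM scale were in genes of varied function. Slc15a2, a peptide transporter, was at 6.67 and 3.28 CPM in the knockout, against 29.7 and 29.4 CPM in wild type (-2.54 ± 0.36, adjusted p = 3.18e-07). Cgnl1, a tight junction protein related to cingulin, was at 2.22 and 3.28 CPM in the knockout, against 20.7 and 15.2 CPM in wild type (-2.64 ± 0.48, adjusted p = 0.000116). Armcx2, an X-linked armadillo-repeat gene, was at 17.8 and 23.0 CPM in the knockout, against 58.6 and 54.4 CPM in wild type (-1.46 ± 0.21, adjusted p = 8.70e-07). The rule for the largest falls took only genes without overlap between groups, and none of these calls ended when 1 library was left out. Kif19a, a kinesin of cilia, fell by 1.58 and Dnaic2, a dynein chain of motile cilia, by 1.16 (38.9 and 38.3 CPM in the knockout, against 88.3 and 84.7 CPM in wild type), and both calls held likewise. Slc15a2 and Dnaic2 are 2 of the 4 falls that DESeq2 also called.

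Prom1 (CD133), a stem cell surface glycoprotein, was at 7.78 and 9.84 CPM in the knockout, against 24.3 and 25.0 CPM in wild type (-1.47 ± 0.32), and kept its call only without wild-type library A. Nt5e, a surface nucleotidase (-1.44), kept its call only without wild-type B. Spef2, of the sperm flagellum (-1.68), and Scara5, a ferritin receptor (-1.68), lost theirs without knockout B or wild-type B.

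Of 24 imprinted genes tested, from a list of 34, 4 fell and 1 rose, beside 1.50% and 1.95% of all genes tested. Peg10, a retroelement-derived gene expressed from the paternal allele, was at 43.3 and 56.8 CPM in the knockout, against 97.3 and 97.2 CPM in wild type (-0.95 ± 0.14, adjusted p = 6.82e-06). Its neighbour on chromosome 6, Sgce, was at 14.4 and 14.2 CPM in the knockout, against 29.7 and 33.0 CPM in wild type (-1.12 ± 0.28, adjusted p = 0.0149). The call for Peg10 held with each library left out in turn, and that for Sgce ended without each of the 4 in turn. The maternally expressed long RNAs Meg3 and Rian, which share a locus on chromosome 12, fell by 0.44 and 0.60, calls that ended without wild-type B and without knockout A (Meg3) or knockout B (Rian). Dio3, a deiodinase gene of the same locus that is not on the list and was chosen after its values were seen, moved the other way, at 44.4 and 43.7 CPM in the knockout, against 18.9 and 12.5 CPM in wild type (1.48 ± 0.24, adjusted p = 1.51e-05). Its call held with each library left out in turn and was not made by DESeq2 (adjusted p = 0.0647). Peg12, likewise outside the list, fell by 1.08 on the log2 scale (ended without knockout B or wild-type A). Slc38a4, an amino acid transporter, was at 183 and 197 CPM in the knockout, against 110 and 106 CPM in wild type (0.81 ± 0.11, adjusted p = 1.86e-07) and was called likewise in DESeq2, with the spread at counting error or above and with each library left out in turn.

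**Figure D3:**
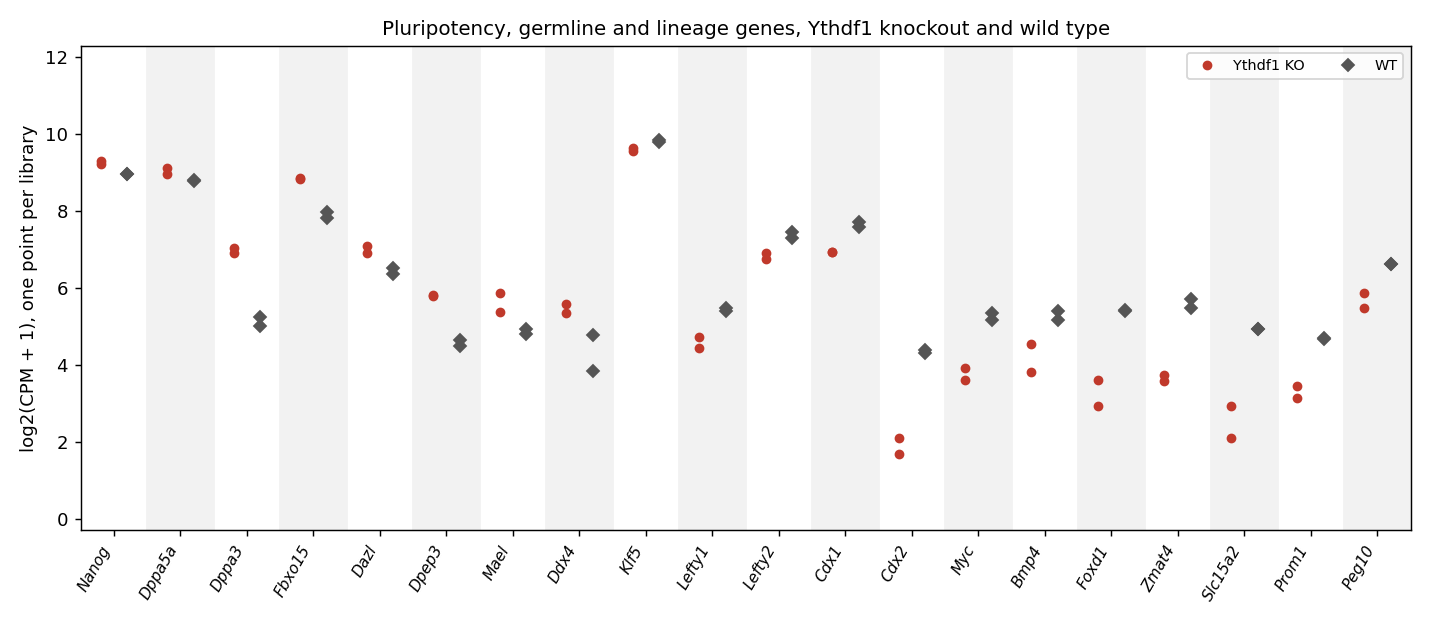
Levels of 20 pluripotency, germline, lineage and imprinted genes as log2(CPM + 1) on the vertical axis, 1 point per library, Ythdf1 knockout left of wild type for each gene. Dppa3 and Fbxo15 stand above their wild-type points and Cdx2, Foxd1, Zmat4 and Slc15a2 well below.

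Genes that handle m6A or methylated mRNA gave few calls. No call was made among 11 writer complex genes (median -0.04), 26 mRNA decay genes (median -0.0017) or 26 stress granule and P-body genes (median 0.01), by edgeR or by DESeq2. At an unadjusted p under 0.05 edgeR had 1 higher writer gene, 1 higher and 1 lower decay gene, and 2 higher and 3 lower stress granule genes. Of all 11951 genes tested, 1775 were under that level in either direction. The exosome nuclease Dis3, which is not on the decay list, was called lower and is given with chromosome 14. Mettl3 was at 128 and 131 CPM in the knockout, against 141 and 137 CPM in wild type. Rbmx, which binds RNA near m6A, fell by 0.59 (71.1 and 54.7 CPM in the knockout, against 88.3 and 100.7 CPM in wild type, ended without knockout B or wild-type B) as the 1 call among 19 readers and erasers. Among 41 translation factors 1 was called, the scaffold Eif4g3, at 57.8 and 53.6 CPM in the knockout, against 95.5 and 99.0 CPM in wild type (-0.80 ± 0.13, adjusted p = 0.000218). All genes tested gave calls at a rate of 3.45%.

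Stress, metabolic and chromatin lists gave few calls, beside 1.95% higher and 1.50% lower of all genes tested. There were 0 of 21 ATF4 targets, 0 of 16 unfolded protein genes, 0 of 20 cholesterol genes, 0 of 23 Polycomb genes and 0 of 13 retinoic acid genes, with medians from -0.13 to 0.07, and DESeq2 called none of these either. At an unadjusted p under 0.05 edgeR had 0 higher and 4 lower ATF4 targets, 3 and 2 unfolded protein genes, 1 and 0 cholesterol genes, 3 and 3 Polycomb genes, and 0 and 1 retinoic acid genes. Of all 11951 genes tested, 1775 were under that level in either direction. The p53 list had 2 rises of 23, Pmaip1 (0.68 ± 0.13, ended without knockout B or wild-type B) and Plk2 (0.44), which was not called with the spread at counting error, nor without either knockout library or wild-type B. Glycolysis had 1 fall of 20, the lactate exporter Slc16a3 (-0.66), hypoxia 1 of 15, Ndrg1 (-0.90), and the cell cycle list 1 rise of 36, Ccnb1 (0.42), and each of these ended without 3 or all 4 of the libraries in turn. The basement membrane gene Lamb1 (0.39, of 9 primitive endoderm genes) and the small chaperone Cryab (0.56, of 15 heat shock genes) were the rises of their lists, and each also ended without 3 or all 4 libraries in turn. Fibroblast feeder markers had 1 rise of 10 tested, Thy1 (19.998 and 19.7 CPM in the knockout, against 7.21 and 2.67 CPM in wild type, 1.98 ± 0.41, ended without wild-type B), with a median of -0.07. Summed, the feeder markers stood at 774 and 803 CPM in the knockout, against 816 and 802 CPM in wild type, and their part in other results was not tested. The interferon list held Sp110 as a rise (2.75, held with each library left out in turn) and Apol6 as a fall (-1.25 ± 0.25, ended without knockout A or wild-type B) among 16. In the lists of the LIF and STAT3 response, of amino acid and peptide carriers and of DNA methylation, the calls were genes described above: Klf5 (1 of 13), Slc38a4 and Slc15a2 (2 of 19) and Dppa3 (1 of 15).

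The map of changes along chromosomes was not even. Among well-counted genes (log2 CPM averaging 5 or more), chromosome 13 had a median log2 change of 0.12 and 223 of its 308 genes (72.4%) were higher in the knockout, while medians of the other 19 chromosomes lay between -0.03 and 0.03. Set against the mean of the 12 stem cell libraries, chromosome 13 stood at 0.12 and 0.08 in knockout libraries A and B and between -0.06 and 0.03 in the remaining 10. Both Ythdf1 knockout libraries therefore differed from the other 10, wild type included. The same median was 0.12 against Ythdf2 knockout and 0.13 against Ythdf3 knockout, comparisons that use no wild-type library. DNA was not measured, so whether chromosome copy number moves with this was not tested.

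On chromosome 13, 25 of 445 tested genes were called higher (5.62%) and 3 lower. The 25 include Spz1 and the 7 genes of the Tcstv cluster given below. Examples are Btf3 (0.31 ± 0.07), a transcription factor subunit, the ribosomal protein gene Rps23 (0.26 ± 0.07) and Smn1, the spinal muscular atrophy gene (0.38 ± 0.08). Btf3 lost its call without wild-type A, Smn1 without knockout B or wild-type A, and Rps23 with each library left out in turn. The Tcstv cluster at the far end of the same chromosome is of another size. Between 119827961 and 120318178 (GRCm38), 7 genes rose by 2.87 to 4.56, among them Tcstv1, Tcstv3, AF067061, Gm20767 (3.08 ± 0.27) and BC147527 (3.34 ± 0.42). AF067063, 1 of the 7, lost its call without knockout B or wild-type A. Their nearest tested neighbours Hmgcs1 (0.24, adjusted p = 0.117) and Zfp131 (0.15, adjusted p = 0.799) were not called.

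On 2 further segments it was the wild-type libraries that stood apart. On chromosome 14 from 90 Mb (37 genes), Ythdf1 knockout libraries lay 0.13 and 0.11 above the mean of the 12 libraries, the other 8 between -0.29 and 0.04, and wild-type libraries 0.36 and 0.33 above it. On chromosome 18 from 80 Mb (16 genes), Ythdf1 knockout libraries lay at 0.03 and -0.02, the other 8 between -0.03 and 0.24, and wild-type libraries at -0.40 and -0.34. Every comparison that uses wild type carries these differences. On the chromosome 14 end the Ythdf1 knockout libraries also lay above the other 8, and the median log2 difference there was 0.24 against the Ythdf2 knockout, with 97.3% of the 37 genes positive, and 0.06 against the Ythdf3 knockout. Median log2 changes in the Ythdf1 knockout were -0.19 on chromosome 14 and 0.44 on chromosome 18. Calls placed there include the falls of Rbm26 (-0.55 ± 0.08), Dis3 (-0.49), Mycbp2 (-0.67) and Uggt2 (-1.91) on chromosome 14, of which Rbm26 and Uggt2 held with each library left out in turn. Mycbp2 ended without knockout B or either wild-type library, and Dis3 without either knockout library or wild-type A. Rises on chromosome 18 include Txnl4a (0.54 ± 0.08, held with each library left out in turn but not called by DESeq2), Cyb5a (0.53 ± 0.10, ended without knockout A) and Pard6g (1.11 ± 0.21, ended without wild-type A). Chromosome 13 and both segments were picked because they stood apart in these libraries, so their share of calls is a description and not a test. Together they held 44 calls among 516 genes (8.53%), 32 higher and 12 lower. Elsewhere 368 of 11435 (3.22%) were called, 201 higher and 167 lower. Without members of the 2-cell lists, chromosome 13 and both segments held 40 calls among 512 genes (7.81%), 28 higher and 12 lower. Genes of the Tcstv cluster that are on no list, such as Gm20767 and BC147527, remain among those rises.

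**Figure D4:**
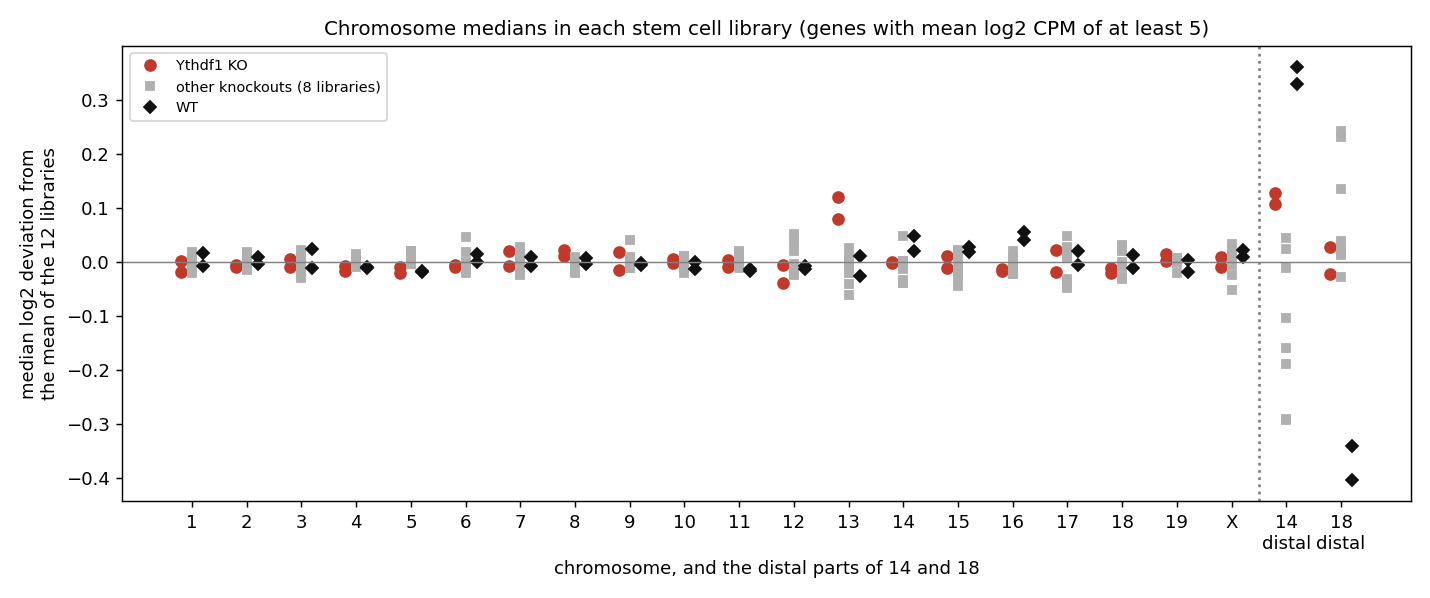
Median deviation of each chromosome's genes from the mean of the 12 stem cell libraries (vertical axis, log2), 1 point per library, with Ythdf1 knockout left, 8 libraries of other knockouts in the middle and wild type right, and the distal parts of chromosomes 14 and 18 drawn apart. On chromosome 13 both Ythdf1 knockout libraries (0.12 and 0.08) stand well above the other 10, and on both distal parts wild type stands well away from the rest.

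Direct comparison with the Ythdf2 knockout, which uses no wild-type library, called 130 genes (1.09%), 88 higher (0.736%) and 42 lower (0.351%) in the Ythdf1 knockout. Of the 32 genes of the 2-cell embryo 20 were higher, with a median log2 difference of 2.22. Usp17la was at 42.2 and 59.0 CPM in the Ythdf1 knockout, against 3.88 and 3.49 CPM in the Ythdf2 knockout (3.73 ± 0.36, adjusted p = 1.34e-12). Chit1 was at 52.2 and 56.8 CPM in the Ythdf1 knockout, against 6.46 and 8.15 CPM in the Ythdf2 knockout (2.87 ± 0.29, adjusted p = 7.80e-12), and H2-M10.4 at 45.5 and 43.7 CPM in the Ythdf1 knockout, against 2.59 and 4.66 CPM in the Ythdf2 knockout (3.55 ± 0.36). DESeq2 called 16 of the 20 and 32 genes in all. Dppa3 was higher by 0.83 (adjusted p = 6.89e-05), Fbxo15 by 0.39 (ended without Ythdf2 knockout B) and Nelfa by 0.57, and DESeq2 called none of these 3.

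The imprinted gene Mest was the largest difference in the other direction, at 4.44 and 6.56 CPM in the Ythdf1 knockout, against 71.1 and 74.5 CPM in the Ythdf2 knockout (-3.69 ± 0.28, adjusted p = 8.40e-17). Wild type had 2.70 and 2.67 CPM, below both knockouts. Slc15a2 was lower than in the Ythdf2 knockout as well (6.67 and 3.28 CPM in the Ythdf1 knockout, against 20.7 and 24.4 CPM in the Ythdf2 knockout, -2.16 ± 0.41), as was Mir124a-1hg, the host transcript of a miR-124 copy, with 16.7 and 20.8 CPM in the Ythdf1 knockout, against 59.5 and 52.4 CPM in the Ythdf2 knockout (-1.57 ± 0.23, adjusted p = 2.95e-06). The call for Slc15a2 ended without Ythdf1 knockout B or Ythdf2 knockout B. Meg3 was lower by 0.73 and Rian by 0.83 (ended without Ythdf1 knockout B or Ythdf2 knockout A). Ythdf2 itself was at 28.9 and 35.0 CPM in the Ythdf1 knockout, against 18.1 and 10.5 CPM in its own knockout (1.17, adjusted p = 0.0461), a call that ended without each library in turn and was not made with the spread at counting error or above. Without Ythdf2 knockout B the count of calls was 68.

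Against the Ythdf3 knockout 38 genes were called (0.318%), 27 higher (0.226%) and 11 lower (0.0920%). The set of the 2-cell embryo was higher for 9 of 32, with a median log2 difference of 0.93. Usp17le was higher by 1.34 (adjusted p = 5.64e-11) and Tcstv1 by 1.35, at 61.1 and 78.7 CPM in the Ythdf1 knockout, against 28.4 and 26.6 CPM in the Ythdf3 knockout. H2-M10.4 was at 45.5 and 43.7 CPM in the Ythdf1 knockout, against 10.0 and 13.3 CPM in the Ythdf3 knockout (1.90 ± 0.29, adjusted p = 5.76e-05). No Zscan4 gene was called, with differences of 0.41 to 0.76. Few of these calls held. Tcstv1 ended without Ythdf1 knockout B or Ythdf3 knockout B, DESeq2 called 1 gene, and the count was 19, 22, 14 and 11 without Ythdf1 knockout A and B and Ythdf3 knockout A and B in turn. Msmo1, a sterol oxidase of cholesterol synthesis, was lower, at 252 and 234 CPM in the Ythdf1 knockout, against 387 and 346 CPM in the Ythdf3 knockout (-0.58 ± 0.08, adjusted p = 3.11e-06), and wild type had 230 and 242 CPM. Dppa3 was higher by 1.13 (adjusted p = 2.46e-06, ended without Ythdf3 knockout B). Obox6 and Pramel6 were also called higher, and each kept its call only without Ythdf1 knockout B.

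**Figure D5:**
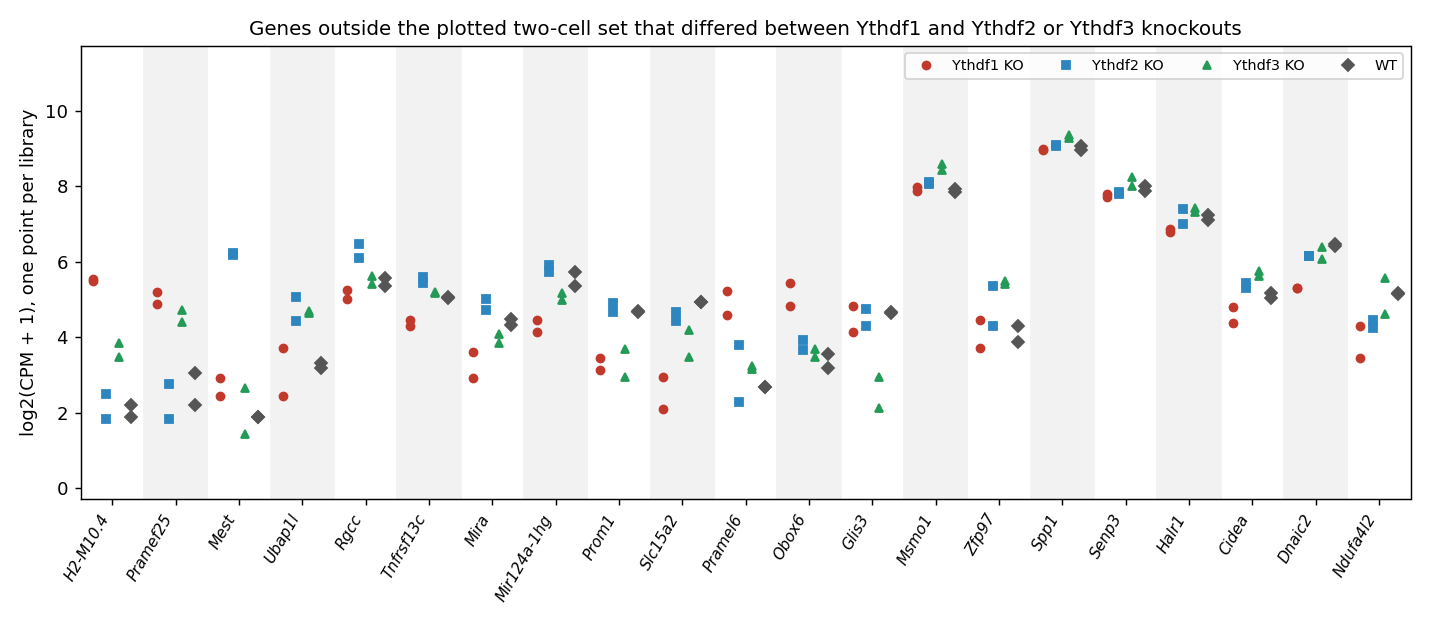
Levels, as log2(CPM + 1) on the vertical axis with 1 point per library, of genes that differed most between the Ythdf1 knockout and the Ythdf2 or Ythdf3 knockout and are not in the plot of 2-cell genes. H2-M10.4 and Pramef25 are high in the Ythdf1 knockout, Mest is higher in the Ythdf2 knockout than in the other plotted groups, and Slc15a2 and Dnaic2 are lowest in the Ythdf1 knockout.

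For orientation, and since all share the wild-type libraries, the count of the 32 genes called higher than wild type and their median log2 change were 26 and 2.89 in the Ythdf1 knockout, 1 and 0.85 in the Ythdf2 knockout, 20 and 2.07 in the Ythdf3 knockout, 28 and 4.10 in the triple knockout, and 0 and 0.29 in the Mettl3 knockout. At an unadjusted p under 0.05 edgeR had 2 of the 32 higher and 1 lower in the Mettl3 knockout. For knockouts other than that of Ythdf1, the shares of all genes at either level are not given here. Of the 32 genes, 27 did not reach the filter in both wild-type libraries and passed through groups in which they are higher. The counts therefore describe the members that passed and do not rank the genotypes.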

How the data were processed

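Poly(A) RNA of KH2 stem cells was sequenced from ScriptSeq v2 libraries, per the labels' protocols. The submitters' processing notes name CASAVA 1.8.2, cutadapt, STAR 2.4.2a, DESeq2 and mm10. The authors deposited raw counts per gene for each library, which were used as deposited. The deposited fold changes and p-values were not used. No source used here gives the counter or its strand setting, so overlapping and antisense genes may share reads.

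Genes were tested with edgeR 4.0.16 (R 4.3.3, limma 3.58.1) by the quasi-likelihood F test with TMM scaling and edgeR's default filter on low counts, which kept 11951 of 14006 genes. The fit held all 12 stem cell libraries in 6 groups of 2. Benjamini-Hochberg adjusted p-values under 0.05 were calls. CPM are counts divided by the TMM-scaled counts of tested genes, times 1e6. DESeq2 1.42.0 and the other alternatives are given in the closing section. Both tools were tested on simulated data whose spread was never below counting error. The spread estimated here was below it for 11759 of 11951 genes, so the simulations do not check calls made at that spread. Same-letter replicates of the Ythdf1 knockout and wild type were not treated as pairs.

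The members and the 38 gene lists were chosen with earlier results of these data known. The rule for named genes took the 15 largest rises and the 15 largest falls that were called, averaged 4 or more on the log2 CPM scale and had no overlap of groups, the 8 largest each way in each direct comparison, up to 5 of each list by p, and genes within 500 kb of Ythdf1. Predicted genes and Y-linked genes were kept out of the largest changes. Genes of chromosomes 13, 14 and 18 were named after their values were seen. Gene places came from GENCODE M21 (GRCm38), which held 96.4% of tested symbols. Counting intervals cover counting error only. Floors cover that of the wild-type group and not that of the knockout, so they are not lower limits of a fold.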

Additional observations from a re-analysis of the deposited data

How the results depend on the processing

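None of the 129 named calls against wild type, nor of the 16 in each direct comparison, changed direction under the alternatives in which they were tested. The 412, 130 and 38 calls against wild type, Ythdf2 knockout and Ythdf3 knockout became 56, 32 and 1 with DESeq2. Those of 2-cell genes became 20, 16 and 1, against 26, 20 and 9. Leaving out 1 library gave 193 to 237, 68 to 96 and 11 to 22 calls, and 23 to 25, 19 to 20 and 4 to 6 of 2-cell genes. The cause was not tested, other than that fewer libraries were fitted. With the spread never below counting error, an alternative added after the data were seen, 337, 113 and 31 genes were called. Scaling by DESeq2's size factors gave 412, 129 and 38, no filter 409, 130 and 39, a filter of 5 CPM in 2 libraries, which kept more genes than the default, 411, 131 and 38, and a fit of the compared groups alone 426, 128 and 41. Without the genes of chromosome 13 and both chromosome ends, also added after the data were seen, 368 genes were called against wild type.

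With the replicate letter as a block, 420, 133 and 41 genes were called, and of the 129 and 16 each named calls it ended 1, that of Gkap1 on chromosome 13 against wild type (0.88, edgeR adjusted p = 0.106). Deviations of same-letter libraries of the Ythdf1 knockout correlated at 0.0916 with wild type, 0.189 with the Ythdf2 knockout and 0.101 with the Ythdf3 knockout. With 2 libraries a group and no label that gives the letters a meaning, they were not read as pairing. Of 129 named calls against wild type, 52 held without each library in turn. The median of chromosome 13 stayed between 0.106 and 0.154 when 1 library was left out, that of the chromosome 14 end between -0.210 and -0.182, and that of the chromosome 18 end between 0.396 and 0.478. Genes under about 10 CPM rest on few counts.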

Other observations

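Outside the lists, Kif5a, a neuronal kinesin, and Lgals1, a galectin, were chosen after their values were seen. Kif5a was at 121 and 119 CPM in Ythdf1 knockout libraries, against 195 and 214 CPM in wild type (-0.77 ± 0.10, edgeR adjusted p = 1.24e-08). Lgals1 was at 53.3 and 66.7 CPM in Ythdf1 knockout libraries, against 118 and 114 CPM in wild type (-0.95 ± 0.13, edgeR adjusted p = 4.94e-07). Kif5a was 1 of the 4 falls that DESeq2 also called.

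The Y-linked translation factor gene Eif2s3y differed between stem cell groups. It was at 0 and 4.37 CPM in the Ythdf1 knockout, 1.29 and 4.66 CPM in the Ythdf2 knockout, 1.67 and 5.32 CPM in the Ythdf3 knockout, 63.9 and 63.0 CPM in the triple knockout, 172 and 214 CPM in the Mettl3 knockout, and 14.4 and 12.5 CPM in wild type. In the Ythdf1 knockout against wild type it fell by 2.53 ± 0.55 on the log2 scale (edgeR adjusted p = 0.00213), a call that ended without knockout library A. Whether the Y chromosome itself differs between these lines was not tested.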
